A study of Homo sapiens with 95 samples.

Results

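The aldehyde dehydrogenases described here are 9 genes, ALDH3A1, ALDH3A2, ALDH3B1, ALDH3B2, ALDH1A1, ALDH1A3, ALDH2, ALDH7A1 and ALDH9A1, a set of symbols out of the 27978 genes listed in every sample. The rule uses no measured value, although the set was proposed with earlier results of these data known. They were measured by sparse full length (SFL) sequencing, a pooled RNA-seq method, in 95 samples of AALE, a line of immortalized epithelial cells from the human bronchus. In 2 lines a gene was knocked out by CRISPR (FAT1 and CDKN2A), and their control was transfected with the pSpCas9-EGFP plasmid PX458 without a guide (GFP). A further 4 lines overexpressed NRF2 (NFE2L2), FGFR1, NRG1 or PIK3CA, and their control carried the empty vector with the reporter HcRed. Each of the 8 lines was plated to confluency and received cigarette smoke condensate (CSC) at 24 μg/ml, benzo(a)pyrene (BaP) at 173 μM, the tobacco nitrosamine NNK at 490 μM, or the solvent DMSO. This gave 32 groups of 3 samples, except for CSC-treated FGFR1 cells with 2. All groups share the immortalized AALE background, and whether a line was a single clone is not given in the sources used here.

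Aldehyde dehydrogenases oxidize aldehydes to carboxylic acids with NAD(P)+ as the cofactor. Cigarette smoke carries reactive aldehydes, and lipid peroxidation makes more of them inside the cell. ALDH3A1, which oxidizes aromatic and medium-chain aldehydes, is a textbook target of the aryl hydrocarbon receptor (AhR), and it is induced in the airway epithelium of smokers. ALDH3A2 oxidizes long-chain fatty aldehydes in the endoplasmic reticulum, and ALDH3B1 and ALDH3B2 are related enzymes that act on lipid-derived aldehydes. ALDH1A1 and ALDH1A3 make retinoic acid from retinaldehyde. ALDH2 is the mitochondrial enzyme that clears acetaldehyde, ALDH7A1 acts in lysine breakdown, and ALDH9A1 acts in the synthesis of carnitine.

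The 9 genes lie on 7 chromosomes of GRCh37 and all are annotated as protein coding. ALDH3A1 (chr17:19641297-19652256, minus strand) and ALDH3A2 (chr17:19551449-19589073, plus strand) are neighbours, and ALDH3B1 (chr11:67776048-67796749, plus strand) and ALDH3B2 (chr11:67429626-67448695, minus strand) share chromosome 11. ALDH1A3 (chr15:101417919-101456831, plus strand) is overlapped by its antisense transcript ALDH1A3-AS1 (chr15:101432548-101459596, minus strand), and 32.1% of its exon bases are also exon bases of that transcript. The others are ALDH1A1 (chr9:75515587-75695358, minus strand), ALDH2 (chr12:112204691-112255336, plus strand), ALDH7A1 (chr5:125866892-125931054, minus strand) and ALDH9A1 (chr1:165631453-165667799, minus strand).

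Promoter sequences of RefSeq (tabulated on GRCh38.p14, and placed on GRCh37 by an exact match) were matched for 6 of the 9 genes. No window was available for ALDH3A1, ALDH3B2 or ALDH2. The gene spans above come from GENCODE, and their starts can differ from those of RefSeq. The 250 upstream bases of ALDH1A3 and of ALDH1A1 lie wholly inside the spans given above, and those of ALDH7A1 partly. The 250 bases before the annotated RefSeq start are shown for ALDH1A3, which rose in every line with CSC and with BaP, and for ALDH3A2, which had the highest read count but moved little. Capitals mark GCGTG or its reverse complement, the core of the xenobiotic response element that AhR binds.
ALDH1A3, chr15:101419786-101420035, plus strand: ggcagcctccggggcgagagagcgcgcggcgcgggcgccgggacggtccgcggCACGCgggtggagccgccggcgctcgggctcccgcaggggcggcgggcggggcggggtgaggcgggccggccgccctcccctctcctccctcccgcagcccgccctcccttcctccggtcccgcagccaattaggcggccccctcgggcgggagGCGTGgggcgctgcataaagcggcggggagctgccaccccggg
ALDH3A2, chr17:19551199-19551448, plus strand: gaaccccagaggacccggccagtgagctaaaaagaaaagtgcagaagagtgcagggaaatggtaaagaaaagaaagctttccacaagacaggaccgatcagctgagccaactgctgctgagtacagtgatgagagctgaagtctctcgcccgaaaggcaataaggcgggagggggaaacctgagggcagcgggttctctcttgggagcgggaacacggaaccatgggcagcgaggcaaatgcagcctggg
The ALDH1A3 window holds 2 such cores, at -197 and -43 from the start. The windows of ALDH3A2, ALDH3B1, ALDH1A1, ALDH7A1 and ALDH9A1 hold 0. Both strands were searched over 250 bases before and 50 after the start, and 36.5% of 35114 RefSeq windows of that length hold this core. The antioxidant response element (TGACNNNGC, in 13.3% of windows) and the AP-1 site (TGACTCA or TGAGTCA, in 4.95%) were in none of the 6 windows. These matches describe letters in a short window and say nothing of binding.

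The total count per sample was between 287446 and 2116383 reads, with a median of 934235. In all 6 perturbed lines the targeted gene did not overlap its control in any sample. For example, NFE2L2 had 1317 to 1785 CPM against 191 to 247 in HcRed. CPM are counts scaled to the sample's total, as adjusted by TMM normalization. Of the 9 airway basal markers examined, including KRT5 and TP63, all had reads in every sample, while of the 15 markers of other cell types COL1A1 (fibroblasts) had 5 to 78 reads per sample and CD68 (blood) 0 to 62. The other 13 had at most 7 reads in any sample, and the number of samples without a read ran from 39 for DCN (fibroblasts) and 58 for SFTPB (alveolar) to 93 for SCGB1A1 (club cells) and COL3A1 (fibroblasts). The 24 DMSO libraries differed from most of the rest in base composition. Across genes, the Spearman rho of a sample's deviation with GC content had a median of -0.464 in DMSO (from -0.655 to -0.224). It was 0.169 (-0.0026 to 0.567), 0.151 (-0.301 to 0.484) and 0.150 (-0.177 to 0.451) in CSC, BaP and NNK, so of these the range of BaP overlapped that of DMSO. ALDH3A1, ALDH3B1 and ALDH3B2 lie near percentile 87 of GC content (59.5% to 59.7% GC), and ALDH1A3 lies near percentile 53. Values after removal of this trend are therefore given beside each comparison with DMSO that they change.

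The 9 genes ranged from the detection limit to 388 CPM. By reads, ALDH3A2 was highest, with 134 CPM in the lowest sample, a median of 228 and 339 in the highest. ALDH1A3 followed with 41.2, 172 and 388 CPM. The other members with reads in every sample were ALDH9A1 (median 84.0 CPM), ALDH7A1 (58.5), ALDH2 (33.4) and ALDH3B1 (27.5). ALDH3A1 had the widest spread among them for its level, from 0 to 157 CPM with a median of 18.6, and was missing from 1 sample of 95. ALDH3B2 had a median of 2.05 CPM and no read in 15 samples.

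ALDH1A1 was close to absent. It had 30 reads in total, spread over 22 samples, and at most 3 in a sample. In the 12 GFP samples it had 0 reads of 10673852, which allows up to 0.281 CPM, where the pooled level in the other lines was between 0.170 and 0.589 CPM. These pooled values used read totals without the TMM adjustment. Its mean count was below the filter of the tests, so no comparison of ALDH1A1 was made, and counts below refer to 8 tested members. Such limits cover counting error only.

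Levels of different genes can be ordered only per length. The lengths came from GENCODE models, while reads were counted over RefSeq genes. Some exon bases may therefore lie where no reads were counted. For ALDH3A2 all exons cover 15331 bases and the longest transcript 5084. In CPM per kb of exon the order of medians over all 95 samples, with treatments pooled, was ALDH1A3 (32.2), ALDH9A1 (27.9), ALDH3A2 (14.9), ALDH3A1 (4.80), ALDH3B1 (4.16), ALDH2 (3.43), ALDH7A1 (3.27), ALDH3B2 (0.568) and ALDH1A1 (0). Most of these samples were treated. The median of ALDH1A3 was 106 CPM in DMSO and 172 over all samples, and that of ALDH3A1 9.06 and 18.6. The order in DMSO alone can therefore differ and is not given. ALDH1A3 exceeded ALDH9A1 in 53 of 95 samples, ALDH3A1 exceeded ALDH3B1 in 49, ALDH3B1 exceeded ALDH2 in 54 and ALDH2 exceeded ALDH7A1 in 56, so these neighbours did not separate. ALDH9A1 exceeded ALDH3A2 in all 95 samples. With the length of the longest transcript in place of all exons, ALDH3A2 instead ranked above ALDH9A1 (in 77 of 95 samples) and ALDH7A1 rose to rank 4, whereas ALDH1A3 at the top and ALDH3B2 and ALDH1A1 at the bottom kept their ranks. ALDH1A3 then exceeded ALDH3A2 in 49 of 95 samples, so that its top rank was not separated. Of the retinaldehyde dehydrogenases ALDH1A1 and ALDH1A3, the second was thus near the top of this order and the first at its end.

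**Figure D1:**
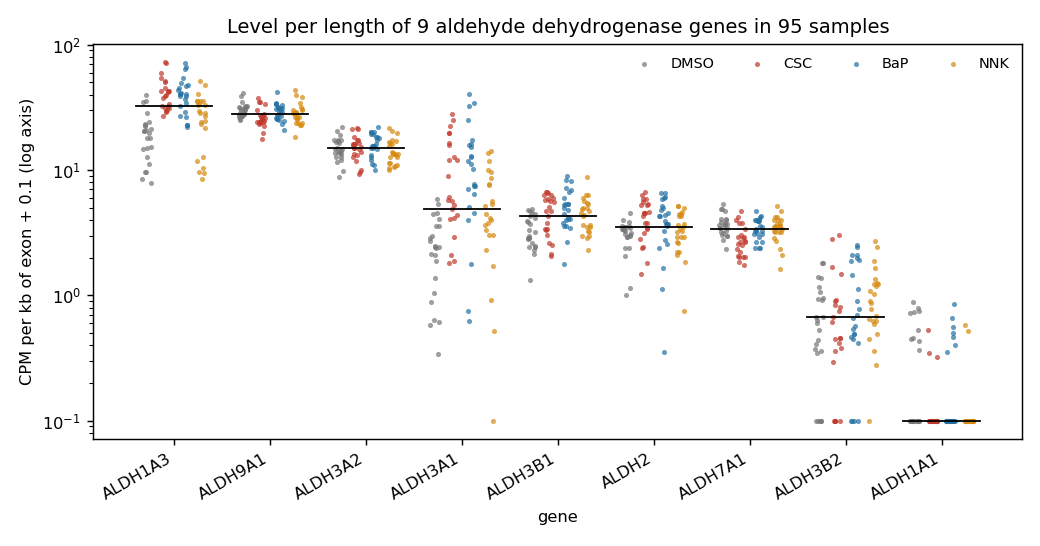
Level of each gene in CPM per kb of exon plus 0.1 (log axis) in the 95 samples, coloured by treatment, with the median as a black line. ALDH1A3 and ALDH3A1 are spread by treatment, while ALDH9A1 (53.2 to 132 CPM) and ALDH3A2 stay in a narrow band and ALDH1A1 lies at 0 in 73 samples.

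The first comparison asked how each treatment changed the genes against DMSO across all 8 lines, with line in the model. ALDH3A1, ALDH1A3, ALDH3B1 and ALDH2 rose with CSC, and ALDH7A1 and ALDH9A1 fell slightly, so 6 of 8 members passed the test. With BaP, 5 rose (ALDH3A1, ALDH1A3, ALDH3B1, ALDH2 and ALDH3A2) and none fell. With NNK, 4 rose (ALDH3A1, ALDH3B2, ALDH3B1 and ALDH1A3). These counts must be read against the large share of all genes called, which was 55.1% with CSC, 51% with BaP and 51.8% with NNK. In so few genes the counts of members are therefore near the background with each treatment. After removal of the GC and length trend, 5, 4 and 2 of the 8 members passed, with 34%, 25.1% and 17.3% of 13487 genes. Each of these member shares was above that of all genes, which was not tested further in so few genes. The median log2 fold change of the 8 members was 0.33, 0.46 and 0.33 in the 3 comparisons, while that of all genes tested was 0.00, 0.01 and 0.00.

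ALDH3A1 had the largest change of the 8 tested members with every treatment. Its lowest, median and highest levels were 0.943, 9.06 and 22.6 CPM in the 24 DMSO samples. With CSC they were 6.60, 23.3 and 108 CPM over 23 samples. With BaP they were 2.03, 41.1 and 157 CPM, and with NNK 0, 16.4 and 54.9 CPM. The ranges overlap when the lines are pooled, and the lines themselves differ, as described below. Within line, the log2 fold change was 2.06 ± 0.14 (SE) with CSC (adjusted p = 1.4e-28), 2.28 ± 0.13 with BaP (2.5e-32) and 1.12 ± 0.15 with NNK (2.3e-10). After removal of the GC and length trend it was 1.68, 1.91 and 0.77, and each passed the test.

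The response of ALDH3A1 was visible in the single samples of both control lines. In GFP cells the 3 DMSO samples had 13.5, 13.4 and 17.1 CPM, the CSC samples 49.2, 63.6 and 61.0 and the BaP samples 67.2, 97.0 and 60.9. In HcRed cells the DMSO samples had 17.2, 10.1 and 7.87 CPM, the CSC samples 86.1, 76.8 and 46.2 and the BaP samples 59.3, 49.98 and 61.9. In both lines all CSC and all BaP samples lay above all DMSO samples, with no overlap. In the median line, 31.4% of genes with CSC and 26.9% with BaP did not overlap DMSO in either direction. NNK gave 33.2, 17.0 and 29.2 CPM in GFP cells, where 1 sample fell within the DMSO range, and 29.9, 36.97 and 38.6 in HcRed cells.

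ALDH1A3 changed less than ALDH3A1, with a smaller error. Its lowest, median and highest levels were 41.2, 106 and 212 CPM in DMSO, 144, 211 and 388 with CSC, 116, 215 and 383 with BaP and 44.6, 151 and 276 with NNK. The log2 fold change was 1.12 ± 0.05 (SE) with CSC (adjusted p = 1.9e-40), 1.08 ± 0.05 with BaP (2.7e-38) and 0.49 ± 0.06 with NNK (5.8e-12). Removal of the GC and length trend left these at 1.11, 1.08 and 0.50. Since the strand setting of the counting is not given in the sources used here, reads of ALDH1A3 and of its antisense transcript cannot be told apart where their exons overlap.

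**Figure D2:**
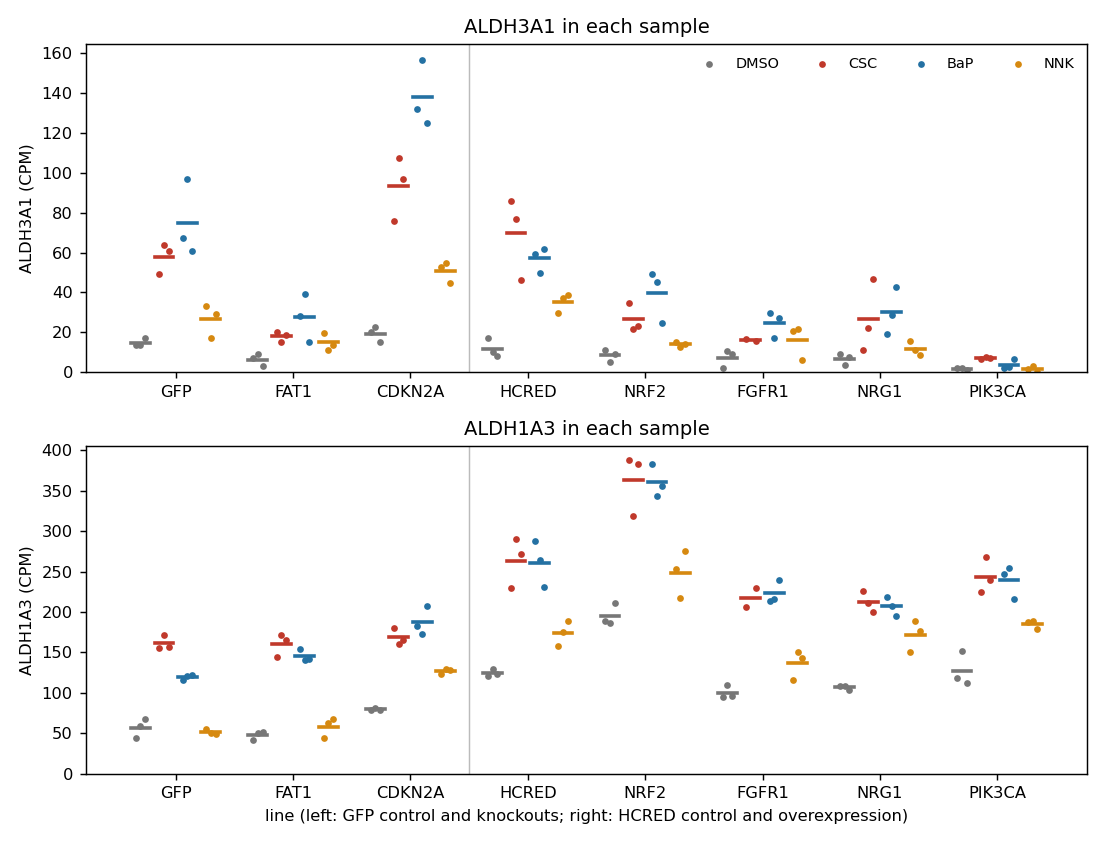
CPM of ALDH3A1 (top) and ALDH1A3 (bottom) in each sample by line and treatment, with the group mean as a bar. Every ALDH1A3 sample treated with CSC or BaP lies above the DMSO samples of its line, while ALDH3A1 reaches 157 CPM in BaP-treated CDKN2A cells and at most 7.69 CPM in PIK3CA cells.

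ALDH2 rose by 0.49 ± 0.08 (SE) with CSC on the log2 scale (adjusted p = 2.1e-07) and by 0.40 ± 0.09 with BaP (5.8e-05). Its median was 31.0 CPM in DMSO, 43.1 with CSC, 39.0 with BaP and 31.4 with NNK, and the ranges of the 4 treatments overlapped. With NNK its difference was 0.16 ± 0.09 (adjusted p = 0.13). Removal of the GC and length trend changed none of these calls.

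ALDH3B1 had a median of 19.8 CPM in DMSO, 30.7 with CSC, 31.7 with BaP and 28.8 with NNK. The log2 fold change was 0.52 ± 0.10 (SE), 0.61 ± 0.10 and 0.50 ± 0.11, with adjusted p of 4.7e-06, 1.7e-07 and 2.5e-05. After removal of the GC and length trend it was 0.14, 0.24 and 0.12, and none passed the test (adjusted p = 0.29, 0.060 and 0.45). The part of base composition in the rise of ALDH3B1 was not tested beyond this. ALDH3B2, at 1.87 to 2.85 CPM in the medians of DMSO and NNK, passed only with NNK (0.60 ± 0.25, adjusted p = 0.037), and this call was absent after the same removal (0.23, adjusted p = 0.59), with edgeR (0.093), with DESeq2 (0.076) and without the samples numbered 1 (0.30) or 3 (0.29).

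ALDH3A2, ALDH7A1 and ALDH9A1 moved little. ALDH3A2 rose by 0.13 ± 0.03 (SE) with BaP (adjusted p = 9.9e-04), with medians of 219 CPM in DMSO and 238 in BaP, and this call was lost without the samples numbered 1 (adjusted p = 0.20). Its difference with CSC was 0.03 ± 0.03, which after removal of the GC and length trend was 0.12 and passed the test (adjusted p = 0.0034). ALDH7A1 fell by 0.34 ± 0.07 with CSC (adjusted p = 9.3e-06), from a median of 63.1 CPM to 46.0. ALDH9A1 fell by 0.17 ± 0.05 with CSC (adjusted p = 0.0047), from a median of 90.3 CPM to 76.1, and after the removal its difference was -0.11 with an adjusted p of 0.087. The differences of both with BaP and NNK were between -0.10 and -0.02 and did not pass.

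**Figure D3:**
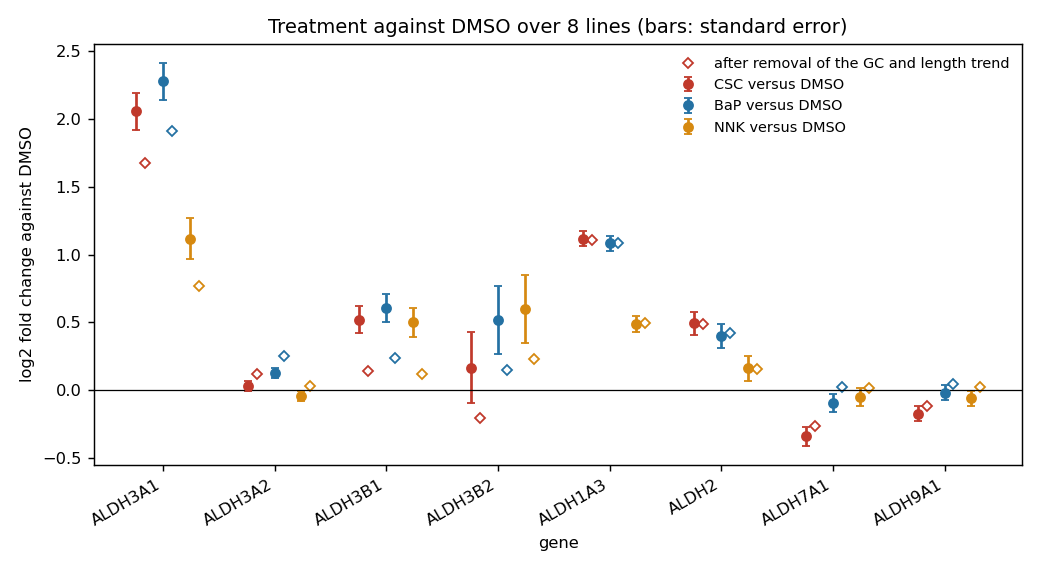
Log2 fold change of 8 genes against DMSO over 8 lines for CSC, BaP and NNK (filled points, with bars of 1 standard error) and the same after removal of the GC and length trend (open diamonds). ALDH3A1 and ALDH1A3 stand above the rest in both, while ALDH3B1 falls from 0.50 to 0.61 to between 0.12 and 0.24 after the removal.

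The treatments were then compared with each other as contrasts in the same fit of all 95 samples. DMSO was not the reference here, although its libraries were part of the fit. The doses were not matched, so these values describe the 3 preparations as applied. CSC and BaP differed for 3 members against 16.5% of all genes, and all 3 differences were small: ALDH3A2 (-0.10 ± 0.03 SE, adjusted p = 0.039), ALDH7A1 (-0.24 ± 0.07, 0.0056) and ALDH9A1 (-0.16 ± 0.05, 0.036), each lower with CSC. Without the samples numbered 1 none of these 3 passed (adjusted p = 0.75, 0.26 and 0.31), and with edgeR only ALDH7A1 did. For ALDH3A1 the difference of CSC from BaP was -0.22 ± 0.14 (adjusted p = 0.28), with a 95% interval of -0.49 to 0.045, and for ALDH1A3 it was 0.03 ± 0.05 (adjusted p = 0.74), with an interval of -0.074 to 0.14.

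CSC exceeded NNK for ALDH3A1 by 0.94 ± 0.15 (SE) on the log2 scale (adjusted p = 6.8e-08), for ALDH1A3 by 0.63 ± 0.06 (1.0e-17) and for ALDH2 by 0.33 ± 0.09 (0.0022), while ALDH7A1 was lower by -0.29 ± 0.07 (4.9e-04). These 4 members compare with 23.7% of all genes. The ALDH2 call was lost without the samples numbered 2 (adjusted p = 0.17) and the ALDH7A1 call without those numbered 1 (0.078). BaP exceeded NNK for ALDH3A1 by 1.16 ± 0.14 (6.2e-11), for ALDH1A3 by 0.59 ± 0.06 (4.6e-16) and for ALDH3A2 by 0.17 ± 0.04 (1.1e-04), 3 members against 11.8% of all genes. Of these, ALDH3A2 did not pass without the samples numbered 1 (0.21). The order of CSC and BaP above NNK for ALDH3A1 and ALDH1A3 thus did not use DMSO as the reference. A fit without the DMSO libraries was not run.

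Each treatment was also tested against DMSO within each line, 3 samples against 3 (2 against 3 for CSC in FGFR1). The share of tests called over the 8 lines was 38.7% of 62 member tests with CSC, 33.3% of 63 with BaP and 15.6% of 64 with NNK, against 16.3%, 10.3% and 10.1% of all gene tests. With the GC and length trend removed the shares were 25.8%, 31.7% and 7.81%, against 5.87%, 2.53% and 1.07% of all gene tests. ALDH1A3 rose in 8 of 8 lines with CSC (log2 fold change 0.89 to 1.81) and with BaP (0.89 to 1.68), and in 6 of 8 with NNK. All 16 calls with CSC and BaP held when each replicate was left out in turn, where for CSC in FGFR1 the fit without replicate 2 or 3 leaves 1 CSC sample, assumed to vary like the DMSO samples. All 16 also held after removal of the GC and length trend, while of the 6 calls with NNK 4 did. In each line all CSC samples and all BaP samples of ALDH1A3 lay above all DMSO samples, where 31.4% and 26.9% of genes did not overlap in the median line in either direction.

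ALDH3A1 rose in 8 lines with CSC (1.39 to 2.52) and in 7 with BaP (1.82 to 2.84), but in 2 with NNK, CDKN2A (1.40) and HcRed (1.56). The exception with BaP was PIK3CA (0.86 ± 0.72 SE), where the counts were low. Of the 15 calls with CSC and BaP, 9 held when each replicate was left out in turn, and the other 6 were in FAT1 with CSC, PIK3CA with CSC, and FGFR1 and NRG1 with both. With the trend removed ALDH3A1 passed in 5 lines with CSC, 6 with BaP and 1 with NNK. In NRG1 cells the CSC samples had 11.01, 22.2 and 46.6 CPM against 9.12, 3.64 and 7.74 in DMSO, which shows the spread behind those calls. ALDH3B1 was called in 3 lines with CSC, 4 with BaP and 2 with NNK, and ALDH2 in 4, 2 and 0 lines, all upward. None of these 9 ALDH3B1 and 6 ALDH2 calls held when each replicate was left out in turn, and DESeq2 made 1 and 0 of them. With the trend removed 1 of the ALDH3B1 calls was left, with BaP, while ALDH2 passed in 3 lines with CSC and 2 with BaP. ALDH7A1 was called in NRG1 cells with CSC (-0.62), a call lost with the trend removed (adjusted p = 0.095) and on leaving out a replicate. ALDH3A2, ALDH3B2 and ALDH9A1 were called in no line by limma-voom (4 of 69 tests at an unadjusted p below 0.05), while edgeR called 1 of these tests, ALDH9A1 in GFP cells with NNK, and DESeq2 called 0. With the trend removed ALDH3A2 passed with BaP in 3 lines, upward. Of all 55 calls within lines, 29 held when each replicate was left out in turn, 19 of ALDH1A3 and 10 of ALDH3A1.

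**Figure D4:**
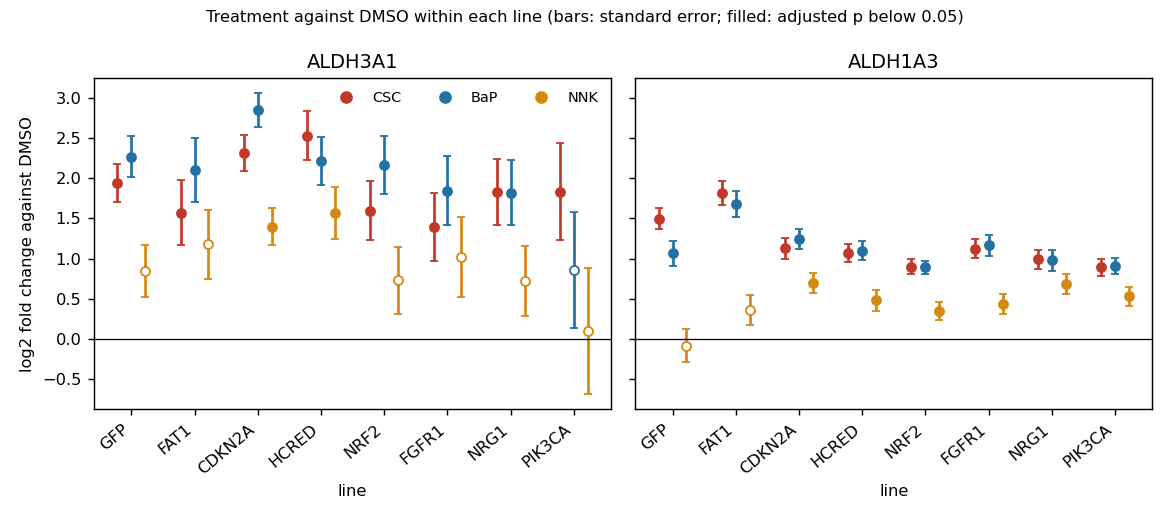
Log2 fold change of ALDH3A1 (left) and ALDH1A3 (right) against DMSO within each of the 8 lines, with bars of 1 standard error and filled points where the adjusted p was below 0.05. ALDH1A3 has short bars and ranges with CSC from 0.89 to 1.81, while ALDH3A1 has larger changes and longer bars.

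Whether the response to a treatment differed between lines was tested with an interaction term over the 8 lines. For CSC, ALDH1A3 was the 1 member called (F = 6.40 with adjusted p = 0.0011), against 1.28% of all genes. Its log2 fold change with CSC was 1.81 in FAT1 and 1.50 in GFP cells, and from 0.89 to 1.13 in the other 6 lines. The GFP samples went from 44.5, 58.6 and 67.4 CPM to 155, 172 and 157, and the FAT1 samples from 41.2, 50.6 and 51.2 to 144, 172 and 165. The NRF2 samples went from 189, 186 and 212 CPM to 388, 319 and 383. Without the samples numbered 2 the interaction did not pass (adjusted p = 0.18), and with the GC and length trend removed it did (0.0013). No member was called for the interaction with BaP or with NNK by limma-voom, where 0.25% and 0.174% of all genes were, nor for the interaction of NRF2 with CSC, where 0.238% were. At an unadjusted p below 0.05 there were 2, 3 and 1 members of 8, and edgeR and DESeq2 called 0 too, as did limma-voom with the trend removed. In the last, the difference of ALDH3A1 was -0.92 ± 0.51 (SE, adjusted p = 0.55) and that of ALDH2 -0.72 ± 0.32 (0.44).

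The lines were compared with their controls over all 4 treatments, with treatment in the model. ALDH3A1 was called in all 6 comparisons, 5 downward and 1 upward, and had the largest change among the members called in 4 of them. Lines were cultured and perturbed separately, and in these bulk samples fewer cells of a type and less RNA per cell cannot be told apart.

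PIK3CA overexpression had lower ALDH3A1 than HcRed. The 12 HcRed samples had 7.87, 42.4 and 86.1 CPM as lowest, median and highest, and the 12 PIK3CA samples 0, 2.29 and 7.69. The lowest HcRed sample was thus just above the highest PIK3CA sample. The share of all genes that separate these lines was not computed. The log2 fold change was -3.46 ± 0.24 (SE, adjusted p = 1.8e-20). In DMSO alone the PIK3CA samples had 1.98, 2.08 and 0.943 CPM (log2 fold change -2.56), and with CSC, where they rose to 6.60, 7.69 and 6.89, HcRed cells had at least 46.2 (-3.25). These PIK3CA values rest on 1 to 3 reads per sample with DMSO and 6 to 11 with CSC, so the size of the difference is imprecise. The call of that rise with CSC was lost whichever replicate was left out. ALDH3A2 was also lower in PIK3CA cells (-0.54 ± 0.06, adjusted p = 9.3e-13), with a median of 152 CPM against 219. ALDH3B1 was lower by -0.38 ± 0.13 (0.028), a call lost with DESeq2 (0.064), after removal of the GC and length trend (0.061) and without the samples numbered 1 (0.10) or 3 (0.19), and ALDH7A1 was higher by 0.38 ± 0.09 (9.6e-04). These 4 members of 8 compare with 27.8% of all genes.

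FGFR1 and NRG1 overexpression also had lower ALDH3A1. The median was 16.4 CPM in FGFR1 and 13.5 in NRG1, against 42.4 in HcRed. The log2 fold change was -1.63 ± 0.17 (SE, adjusted p = 6.1e-12) and -1.25 ± 0.16 (1.9e-08). In FGFR1 cells ALDH1A3 was lower by -0.28 ± 0.06 (1.9e-04), ALDH7A1 higher by 0.43 ± 0.09 (4.6e-04) and ALDH2 higher by 0.38 ± 0.10 (0.0066), and the last was lost without the samples numbered 2 (0.12) or 3 (0.063). In NRG1 cells ALDH1A3 was lower by -0.22 ± 0.06 (0.0068), a call lost without the samples numbered 2 (0.061). ALDH3B2 was at -1.32 ± 0.47 there (0.058), which passed with edgeR (0.026). The 4 members called in FGFR1 compare with 13.5% of all genes, and the 2 in NRG1 with 10.8%.

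NRF2 overexpression had lower ALDH3A1 and higher ALDH1A3 and ALDH3B2, 3 members against 21.6% of all genes. ALDH3A1 had 4.90, 18.3 and 49.2 CPM as lowest, median and highest, and its log2 fold change from HcRed was -0.90 ± 0.14 (SE, adjusted p = 9.5e-07). ALDH1A3 had 186, 298 and 388 CPM against 121, 209 and 290 in HcRed, a difference of 0.50 ± 0.05 (1.7e-12). ALDH3B2 had 2.78, 7.18 and 10.6 CPM against 0, 2.55 and 8.78, a difference of 1.50 ± 0.34 (4.5e-04) that rests on at most 13 reads per sample. For ALDH3B1 the difference was -0.39 ± 0.15 (0.061), which passed with edgeR (0.046) and after removal of the GC and length trend (0.016).

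The FAT1 and CDKN2A knockouts went opposite ways for ALDH3A1. The 12 GFP samples had 13.4, 41.2 and 97.0 CPM as lowest, median and highest, the FAT1 samples 3.07, 15.2 and 39.4 and the CDKN2A samples 15.3, 65.5 and 157. The log2 fold change was -1.38 ± 0.15 (SE, adjusted p = 1.0e-12) in FAT1 and 0.76 ± 0.10 (1.9e-09) in CDKN2A. ALDH2 followed the same directions. It had 20.4, 31.4 and 49.8 CPM in GFP and 2.46, 14.3 and 25.0 in FAT1 (-1.20 ± 0.17, 6.5e-09), and was higher in CDKN2A (0.36 ± 0.13, 0.013), where the call was lost without the samples numbered 1 (0.13) or 2 (0.16).

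ALDH9A1 was lower in FAT1 cells by -0.25 ± 0.08 (SE, adjusted p = 0.0088), a call lost without the samples numbered 2 (0.062). In CDKN2A cells ALDH3B1 was lower by -1.002 ± 0.15 (1.6e-08), with a median of 17.7 CPM against 34.4 in GFP. ALDH1A3 was higher there by 0.50 ± 0.08 (4.0e-07) and ALDH3A2 by 0.25 ± 0.05 (6.9e-06), with 277 to 339 CPM against 245 to 308. ALDH7A1 was lower by -0.25 ± 0.10 (0.040), and that call was lost with DESeq2 (0.074), with no filter (0.097) and without the samples numbered 1 (0.25) or 3 (0.11). The 3 members called in FAT1 and 6 in CDKN2A, of 8 tested, compare with 48.9% and 57.6% of all genes. In so few genes both counts are near the background.

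**Figure D5:**
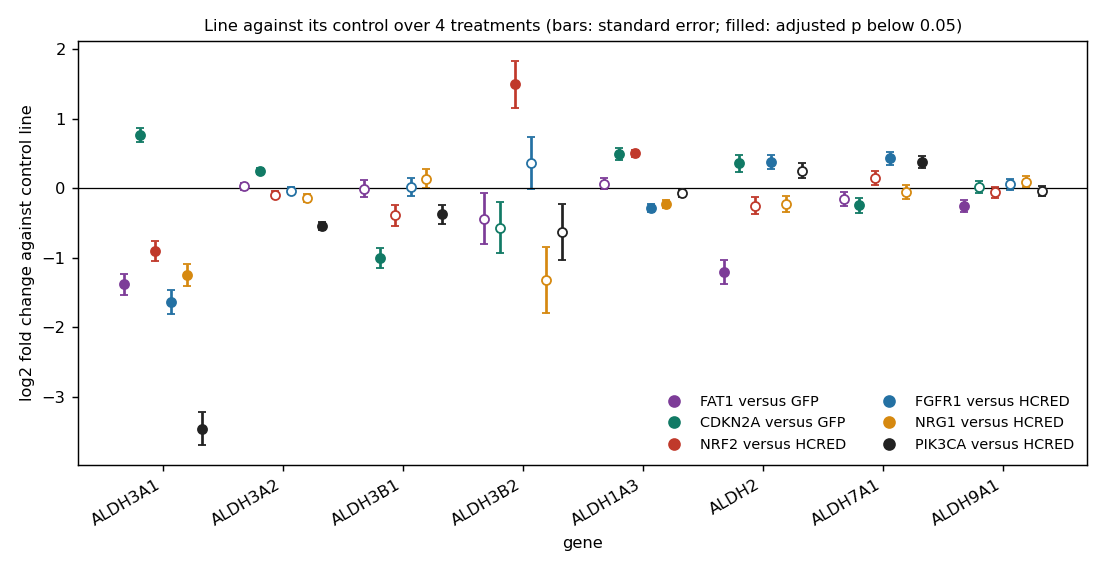
Log2 fold change of 8 genes in each perturbed line against its control over 4 treatments, with bars of 1 standard error and filled points where the adjusted p was below 0.05. ALDH3A1 is below its control in 5 lines and reaches -3.46 in PIK3CA cells, while ALDH3A2 and ALDH9A1 lie close to 0 in most lines.

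Within single treatments, 10 of 48 member tests against the control line were called with DMSO (20.8%), 18 with CSC (37.5%), 11 with BaP (22.9%) and 11 with NNK (22.9%), against 14%, 12.9%, 11.7% and 10.1% of all gene tests. ALDH3A1 was lower in FAT1 and PIK3CA cells with DMSO, and no line had it higher. With CSC it was lower in 5 lines and higher in CDKN2A (0.69). ALDH2 was lower in FAT1 cells with each of the 4 treatments (-1.07, -1.22, -1.59 and -1.13 with DMSO, CSC, BaP and NNK), and ALDH3B1 was lower in CDKN2A cells with each of them (-0.76, -0.99, -1.08 and -1.18). ALDH1A3 was higher in NRF2 cells with each of the 4 (0.64, 0.47, 0.44 and 0.53). On leaving out each replicate, the ALDH2 call with NNK was lost every time and those with DMSO and BaP once each, the ALDH3B1 calls with DMSO and NNK once each, and the ALDH1A3 call with NNK once. Of all 50 calls, 23 held when each replicate was left out in turn, and the 2 of ALDH3A1 with DMSO did not. The tests use the samples of the comparison over all treatments.

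The 2 control lines themselves differed in DMSO for ALDH1A3. Its levels were 44.5, 58.6 and 67.4 CPM in GFP and 121, 130 and 124 in HcRed cells. The log2 fold change was -1.13 ± 0.15 (SE, adjusted p = 2.0e-09). ALDH1A3 was the 1 member called, against 17.7% of all genes. Each perturbed line was tested only against the control that the study names for it. Without GFP sample 1, ALDH9A1 passed as well (0.44, adjusted p = 0.022), and with the GC and length trend removed it did too (0.35, 0.044).

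Other genes of the same pathways give the setting of these changes. Of 10 other aldehyde dehydrogenase genes, 8 were tested. With CSC 2 rose and 2 fell, where 55.1% of all genes were called. Among them were the mitochondrial proline enzyme ALDH4A1 (0.66 ± 0.11 SE on the log2 scale) and the methylmalonate semialdehyde enzyme ALDH6A1 (-0.31 ± 0.08). The median of the list was -0.07 against 0.00 for all genes tested. After removal of the GC and length trend none rose and 2 fell, where 34% of all genes were called. These were ALDH1B1 and ALDH16A1, the latter after a rise of 0.30 without the removal, so no direction is given for this list. In NRF2 cells 2 were higher than in HcRed, ALDH4A1 (0.59) and ALDH5A1 (0.60), where 21.6% of all genes were called. Of 7 alcohol dehydrogenases 1 was tested with CSC, ADH5, which fell by 0.17 and did not pass after the removal.

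Of 12 genes of retinoic acid metabolism and response, 8 were tested with CSC, of which 4 rose and 1 fell. This count is near the background, since 55.1% of all genes were called. The retinol transporter STRA6 rose by 2.12 ± 0.24 (SE), the retinaldehyde reductase DHRS3 by 1.10 ± 0.11 and the retinoic acid hydroxylase CYP26B1 by 0.64 ± 0.27, with a median of the list of 0.28. With BaP 2 rose and with NNK 3, and 1 fell with each, where 51% and 51.8% of all genes were called. With the GC and length trend removed 2 rose with every treatment, STRA6 and DHRS3, and 1 fell with CSC. The shares of all genes were then 34%, 25.1% and 17.3% with CSC, BaP and NNK. STRA6 was lower in NRF2 cells (-0.76).

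Of 7 genes of the AhR battery, 6 were tested, and all 6 rose with CSC and with BaP and 5 with NNK. With CSC the P450 genes CYP1A1 and CYP1B1 rose by 5.66 and 3.37 and the AhR repressor AHRR by 2.69 on the log2 scale, and the medians of the list were 2.15, 2.21 and 1.18 with CSC, BaP and NNK. In PIK3CA cells 4 of 6 were lower than in HcRed, with a median of -0.92, where 27.8% of all genes were called and ALDH3A1 was lower too. ALDH3A1 was lower in 4 other lines, and of the list, in FAT1, NRF2 and FGFR1 cells 3 of the 6 were higher and 1 lower, and in NRG1 cells 2 were lower. In CDKN2A cells, where ALDH3A1 was higher, 2 of 7 were higher and 2 lower. Of 12 NRF2 targets, all 12 rose with CSC and with BaP, with medians of 0.80 and 0.76. With NNK 4 rose and 1 fell, with a median of 0.15. With the GC and length trend removed, all 6 of the AhR battery rose with each treatment, and 12, 11 and 7 of the NRF2 targets did. AKR1C1 rose by 2.04, OSGIN1 by 1.48 and NQO1, which is also in the AhR battery, by 1.37 with CSC. In FAT1 cells 10 of the 12 were lower than in GFP, where 48.9% of all genes were called, and in CDKN2A cells 6 were higher and 1 lower. Against HcRed, 3 were higher in NRF2 cells, 7 in FGFR1 and 1 in NRG1, with none lower, and in PIK3CA 2 were higher and 3 lower. The counts with CSC, BaP and NNK stand beside 55.1%, 51% and 51.8% of all genes called, or 34%, 25.1% and 17.3% with the trend removed. Those in NRF2, FGFR1, NRG1 and CDKN2A cells stand beside 21.6%, 13.5%, 10.8% and 57.6%. The lists were not tested against other genes.

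Across the 32 group means, the pattern of ALDH3A1 was most like that of TRIM16 (Pearson r = 0.900), KHNYN (0.853) and the glutathione transferase GSTP1 (0.838), out of 10055 genes whose mean count reached 10. These 3 were also its closest by Spearman's rho. ALDH1A3 was closest to LOC101927751 (0.853), which RefSeq names ALDH1A3-AS1 and which overlaps it on the opposite strand, and to FAH (0.853) and TTLL12 (0.836). ALDH2 was closest to FAM171A1, TBC1D1 and CKAP4 (0.838 to 0.875), ALDH3A2 to PROS1, HEATR5B and ADI1 (0.846 to 0.877) and ALDH3B1 to ARHGEF5, ZNF282 and PTK6 (0.780 to 0.795). ALDH7A1 was closest to IFIH1, ZWINT and IK (0.787 to 0.843) and ALDH9A1 to DLG1, ZSCAN26 and CHIC1 (0.771 to 0.815). The group means share lines, treatments and sequencing pool, so these values are descriptions.

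Among the members themselves, the highest correlation over the 32 group means was that of ALDH3A1 with ALDH3A2 (Pearson r = 0.700), its neighbour on chromosome 17, and the lowest that of ALDH3A1 with ALDH7A1 (-0.593). ALDH3A1 and ALDH1A3, the 2 members with the largest changes with CSC, had a correlation of 0.208. They rose together with treatment, but in NRF2 cells ALDH1A3 was higher and ALDH3A1 lower than in HcRed.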

How the data were processed

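SFL libraries of 95 samples were sequenced by the authors as single reads. According to the submitters' processing notes and the methods of the study, the authors used cutadapt 1.12, FastQC 0.11.5, STAR 2.5.2b and featureCounts (Subread) on hg19 with RefSeq genes. They deposited whole-number counts per gene without normalization, and no other unit was used. Groups and replicate numbers were taken from the sample labels.

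Counts were normalized with TMM (edgeR 4.0.16, R 4.3.3) and compared by limma 3.58.1 on voom-transformed counts (2-sided), p-values being adjusted by Benjamini-Hochberg with 0.05 as the threshold. Genes were kept if their count, averaged over the samples of a fit, was above 1, and the adjustment ran over all of them. CPM scale each count by the sample's total as adjusted by TMM, and log2 CPM used a prior count of 2. The pooled CPM of ALDH1A1 per line used totals without that adjustment. Results were recomputed with DESeq2 1.42.0, with the quasi-likelihood test of edgeR, with DESeq2 size factors, with other filters (none, or a mean count of at least 10), the replicate block, 1 fit of group means, leaving out each replicate, a loess trend (span 0.3) of GC content and exon length removed per sample, and, for levels, a prior count of 0.5. The single fit of group means covers the tests within lines and within treatments. The trend removal was planned for comparisons over all lines or treatments and for NRF2 by CSC, and was added for the others after seeing the data. GC content and gene lengths came from GENCODE models on GRCh37, which matched 24309 symbols (86.9%). The scripts were checked on simulated data.

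The members and gene lists were chosen with earlier results of these data known. Text names the 9 members, up to 3 genes of each list with the largest change past the threshold (CSC against DMSO, or NRF2 against HcRed), and for members with a mean count of at least 10 the 3 genes with the most similar pattern. The study calls the replicates biological. Whether they came from separate cultures is not given in the sources used here, so p-values measure the spread between these samples. No pair of replicates had identical values. Depth limits precision for ALDH3B2 and ALDH1A1 most. Replicate numbers did not pair the samples (mean correlation of same-numbered deviations 0.0048, from -0.26 to 0.26).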

Additional observations from a re-analysis of the deposited data

Results flagged for a closer look

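The response of ALDH1A3 to CSC differed between the 8 lines by the interaction term (adjusted p = 0.00113 with limma-voom), with a log2 fold change from 0.89 in PIK3CA to 1.81 in FAT1 cells. It did not pass without the samples numbered 2 (adjusted p = 0.18), and the cause was not tested. Groups of 3 samples are too small to look for single outlying samples.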

How the results depend on the processing

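Leaving aside single replicates, 130 of 135 counts of called members stayed within 1.5 times their main value. The exceptions were NNK against DMSO after removal of the GC and length trend (2 in place of 4), GFP against HcRed in DMSO after the same removal, chosen after seeing the data (2 in place of 1), CSC against BaP with edgeR (1 in place of 3), and the tests within lines and within treatments with DESeq2 (33 in place of 55, and 24 in place of 50). The cause was not tested. Leaving out each replicate gave 0 to 3 members for CSC against BaP, 1 to 2 for NRG1 against HcRed, 1 to 2 for GFP against HcRed in DMSO and 0 to 1 for the line by CSC interaction.

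With the replicate block, which pairs samples that share a number but are not shown to be paired, there were 55 member calls within lines and 50 against control lines, as many as without it, 2 in place of 3 for CSC against BaP and 4 in place of 3 for NRF2. The block ended the calls of ALDH3A2 between CSC and BaP (-0.094 on the log2 scale), of ALDH2 in FAT1 with NNK, of ALDH3B1 in FAT1 with NNK and of ALDH3A1 in FGFR1 with CSC, and brought ALDH3B1 in NRF2 past the threshold (-0.41).

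No member past the threshold changed direction under any alternative. Members short of it changed sign as follows, in log2 fold change. After removal of the GC and length trend, ALDH3B2 with CSC was -0.20, ALDH9A1 and ALDH7A1 were 0.044 and 0.023 with BaP and 0.024 and 0.013 with NNK, ALDH3A2 was 0.028 with NNK, ALDH7A1 was 0.0097 for BaP against NNK and ALDH9A1 was -0.030 in CDKN2A. With edgeR, ALDH3B2 was 0.0033 for BaP against NNK and -0.017 for GFP against HcRed, and ALDH3B1 was 5.7e-04 in FAT1, and 0.0022 with DESeq2. With the replicate block, ALDH3B1 was -0.0065 in FGFR1 and ALDH3B2 was -0.032 for GFP against HcRed.

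Leaving out each replicate, the values that changed sign ranged for ALDH3B2 from -0.068 to 0.31 with CSC, from -0.58 to 0.19 for BaP against NNK and from -0.46 to 0.58 for GFP against HcRed. ALDH9A1 ranged from -0.070 to 0.029 with BaP, from -0.0041 to 0.11 for BaP against NNK, from -0.084 to 0.087 in CDKN2A and from -0.042 to 0.11 in FGFR1. ALDH3B1 ranged from -0.013 to 0.048 for CSC against NNK, from -0.17 to 0.22 in FAT1, from -0.11 to 0.15 in FGFR1, from -0.024 to 0.30 in NRG1 and from -0.10 to 0.24 for GFP against HcRed. ALDH3A2 ranged from -0.028 to 0.044 in FAT1, from -0.064 to 0.021 in FGFR1 and from -0.031 to 0.13 in the NRF2 by CSC interaction, and ALDH7A1 from -0.15 to 0.029 in NRG1 and from -0.23 to 0.17 in that interaction.

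Depth limits ALDH3B2 (243 reads over all samples) and ALDH1A1 (30 reads) the most. A prior count of 0.5 moved the mean log2 CPM of both by more than their spread. By Spearman's rho the 3 closest genes were shared in full with Pearson's r for ALDH3A1 and ALDH7A1, and in none for ALDH3A2 and ALDH9A1.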
